A study of Mus musculus with 5 samples.

Results

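Cytochrome P450 genes of families 1 to 4 were described in mouse gastric organoids, clusters of stomach epithelial cells grown in culture. Members were all genes whose symbol begins with Cyp, a family number between 1 and 4, a subfamily letter and a gene number. Of 113 such symbols in the RefSeq gene table, 82 were represented by a probe, among 23779 genes with a probe in all. 5 of the 82 carry a pseudogene or antisense symbol: Cyp2c53-ps, Cyp2d37-ps, Cyp4b1-ps2, Cyp4f41-ps and Cyp4x1os.

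The samples were 5 organoid cultures, each on 1 one-colour array, all labelled as stomach and as female. 4 were grown out of tumours that had formed under the skin, and all 4 carried Trp53 loss. Of these, 2 also carried a hairpin against Cdh1 (shCdh1 #1 and shCdh1 #2, called hairpin 1 and hairpin 2), 1 carried Apc580D and 1 carried Pik3caH1047R. The control came from Trp53flox/flox mice, carried the vector pLKO.1 with the luciferase hairpin shLuc, and was taken before inoculation. The labels name no Trp53 loss for the control, so every comparison with it joins Trp53 loss, the second lesion and growth as a tumour. The design text counts more tumour-derived cultures, and the others were not analysed here. The medium is described once for the series and held EGF at 50 ng/ml, R-spondin1 at 250 ng/ml, Noggin at 100 ng/ml, the ROCK inhibitor Y27632 at 10 μM, Jagged-1 at 1 μM and the GSK3 inhibitor CHIR-99021 at 2.5 μM. The labels do not say which cultures, animals or clones the samples came from. The p-values therefore measure only the spread between these samples, which may be technical. Where tumour-derived cultures of different genotypes were pooled, they served as the replicates, so that spread also holds differences of genotype.

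P450 enzymes are haem proteins of the endoplasmic reticulum that insert an atom of oxygen into their substrate, with electrons supplied by P450 oxidoreductase. Families 1 to 3 act mainly on drugs, plant compounds and other foreign chemicals, and also on steroids and arachidonic acid, while family 4 mainly oxidises the end of fatty acid chains. Many are controlled by receptors that bind their substrates: the aryl hydrocarbon receptor for family 1, and the nuclear receptors CAR (Nr1i3) and PXR (Nr1i2) for Cyp2b, Cyp2c and Cyp3a genes. The liver and the gut hold most of these enzymes, and the stomach epithelium holds some of them.

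Promoters are shown for 8 genes: 6 on which the lower signals of the tumour-derived cultures turn, and Cyp1b1 and Cyp2s1, which averaged within 2-fold of the control. Each is the 250 bases before the start site, from RefSeq on GRCm38.p6, read 5′ to 3′ on the gene's own strand. Capitals mark matches, on either strand, to 5 motifs: the nuclear receptor half-sites AGGTCA and AGTTCA, the aryl hydrocarbon receptor core GCGTG, the Onecut core ATTGAT and the TATA core TATAAA. The windows lie at chr19:39006769-39007018 (Cyp2c55, plus strand), chr19:39060756-39061005 (Cyp2c65, plus), chr19:39113648-39113897 (Cyp2c66, plus), chr7:25897408-25897657 (Cyp2b10, plus), chr7:26173159-26173408 (Cyp2b9, plus), chr15:82794246-82794495 (Cyp2d26, minus), chr17:79715062-79715311 (Cyp1b1, minus) and chr7:25816526-25816775 (Cyp2s1, minus).
Cyp2c55: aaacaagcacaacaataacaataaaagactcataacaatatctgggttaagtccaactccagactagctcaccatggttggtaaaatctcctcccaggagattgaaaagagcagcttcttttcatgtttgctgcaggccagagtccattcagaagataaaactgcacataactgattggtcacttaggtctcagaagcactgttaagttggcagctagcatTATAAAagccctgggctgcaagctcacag
Cyp2c65: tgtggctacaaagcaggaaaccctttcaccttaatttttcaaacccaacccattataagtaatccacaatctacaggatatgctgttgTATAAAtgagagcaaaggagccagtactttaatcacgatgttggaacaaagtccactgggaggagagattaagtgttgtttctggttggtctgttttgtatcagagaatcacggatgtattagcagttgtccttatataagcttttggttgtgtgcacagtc
Cyp2c66: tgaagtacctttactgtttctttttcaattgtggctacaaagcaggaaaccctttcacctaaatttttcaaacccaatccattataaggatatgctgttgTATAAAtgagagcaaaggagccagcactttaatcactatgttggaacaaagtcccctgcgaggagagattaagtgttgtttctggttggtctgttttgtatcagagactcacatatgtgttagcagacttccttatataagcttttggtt
Cyp2b10: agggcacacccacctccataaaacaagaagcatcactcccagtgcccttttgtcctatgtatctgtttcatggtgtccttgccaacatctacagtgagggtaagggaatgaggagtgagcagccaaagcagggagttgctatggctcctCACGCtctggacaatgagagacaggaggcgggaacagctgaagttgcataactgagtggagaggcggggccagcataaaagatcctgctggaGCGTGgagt
Cyp2b9: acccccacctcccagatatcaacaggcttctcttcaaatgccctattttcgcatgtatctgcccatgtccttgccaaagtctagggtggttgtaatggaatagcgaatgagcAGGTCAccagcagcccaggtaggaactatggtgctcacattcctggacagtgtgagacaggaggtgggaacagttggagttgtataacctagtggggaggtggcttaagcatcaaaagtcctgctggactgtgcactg
Cyp2d26: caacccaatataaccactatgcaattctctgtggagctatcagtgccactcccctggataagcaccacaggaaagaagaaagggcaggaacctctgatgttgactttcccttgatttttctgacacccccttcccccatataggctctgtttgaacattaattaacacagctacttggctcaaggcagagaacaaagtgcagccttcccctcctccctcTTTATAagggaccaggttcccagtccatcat
Cyp1b1: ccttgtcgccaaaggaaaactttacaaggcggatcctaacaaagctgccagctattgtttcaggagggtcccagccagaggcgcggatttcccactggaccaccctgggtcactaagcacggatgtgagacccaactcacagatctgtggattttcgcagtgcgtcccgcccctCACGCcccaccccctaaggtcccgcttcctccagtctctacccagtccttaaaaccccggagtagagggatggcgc
Cyp2s1: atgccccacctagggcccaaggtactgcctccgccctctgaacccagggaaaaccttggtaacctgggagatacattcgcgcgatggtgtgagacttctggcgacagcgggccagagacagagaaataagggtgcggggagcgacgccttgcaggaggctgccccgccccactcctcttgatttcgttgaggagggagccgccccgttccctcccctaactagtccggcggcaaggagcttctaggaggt

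The windows of Cyp2c65 and Cyp2c66 were identical at 74.55% of aligned positions and those of Cyp2b10 and Cyp2b9 at 70.99%. The other 26 pairs lay between 43.49% and 54.93%. TATAAA lay at −29 to −24 from the start site in Cyp2c55 and, on the other strand, at −31 to −26 in Cyp2d26. It stood farther out in Cyp2c65 (−162 to −157) and Cyp2c66 (−150 to −145). Cyp2b9 held AGGTCA at −138 to −133, Cyp2b10 held GCGTG at −101 to −97 and at −9 to −5, Cyp1b1 held GCGTG at −76 to −72, and Cyp2s1 held none of the 5 motifs. Over 70 windows of 63 members, TATAAA was present in 34.29% (12.37% of all 32851 windows), AGGTCA in 24.29% (14.02%), ATTGAT in 17.14% (6.724%), GCGTG in 17.14% (28.16%) and AGTTCA in 11.43% (11.84%). Both strands were searched, none of the 5 motifs is contained in another, and a match is a description of the letters only.

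The targeted genes and the labelled tissue were checked first. Trp53 lay at a log2 level of −5.06, −5.09, −5.86 and −4.86 in the hairpin 1, hairpin 2, Apc and Pik3ca cultures, against 0.85 in the control. The Cdh1 level was 0.07 and 0.26 with hairpins 1 and 2, against 4.39 in the control, and the Apc and Pik3ca cultures had 4.48 and 4.58. A level of 0 is the 75th percentile of an array's signals. 17 or 18 of 18 markers of gastric epithelium were well above background on each array, the scanner software's call for a detected spot. The Pik3ca culture went against its female label: the X-inactivation transcript Xist was not well above background there, and Uty, Kdm5d, Eif2s3y and Ddx3y, which lie on the Y chromosome, were, on that array alone. Results are therefore also given without it. The control and both hairpins were on 1 slide and Apc and Pik3ca on another, so the comparison of the hairpins with the control is also the one within a slide.

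Of the 82 members, 32 were well above background on all 5 arrays and 23 on 1 to 4 of them by the probe used. The remaining 27 were not detected by any probe on any array, so 55 were tested. 41, 35, 39 and 41 members were well above background in the hairpin 1, hairpin 2, Apc and Pik3ca cultures, against 47 in the control. The Cyp1 and Cyp3 to Cyp4 families held 10 of the 32 and family 2 held 22. In bulk RNA, fewer cells of a type and less RNA per cell cannot be told apart.

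The main result was a lower signal of 1 set of family 2 genes in every tumour-derived culture. 11 of the 32 members detected on all 5 arrays averaged at least 2-fold lower in the 4 tumour-derived arrays than in the control, against 5.67% of the 14581 genes detected on all 5 arrays. 0 of 32 were at least 2-fold higher, against 5.26% of those genes. The 11 were Cyp2b9, Cyp2b10, Cyp2c23, Cyp2c29, Cyp2c65, Cyp2c66, Cyp2d10, Cyp2d11, Cyp2d12, Cyp2d26 and Cyp2j9. 9 of 32 were at least 2-fold lower on each of the 4 arrays (2.22% of genes). The control lay above all 4 tumour-derived arrays in 17 of 32 (26.3% of genes) and below all 4 in 3, Cyp2c37, Cyp2d40 and Cyp2t4 (28.9%).

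None of the 55 members passed limma's test of the 4 tumour-derived arrays against the control at an adjusted p of 0.05, which 0.119% of all 17583 genes tested passed. By limma's unadjusted p under 0.05, 17 members were lower (6.5% of genes) and 0 were higher (6.84%). The lone control has no spread of its own and is assumed to vary like the 4 tumour-derived arrays. The median difference of the 32 was −0.34 on the log2 scale, against 0.03 for all genes detected on all 5 arrays. Without the Pik3ca culture, 11 of the 32 were again at least 2-fold lower and 0 members passed.

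**Figure D1:**
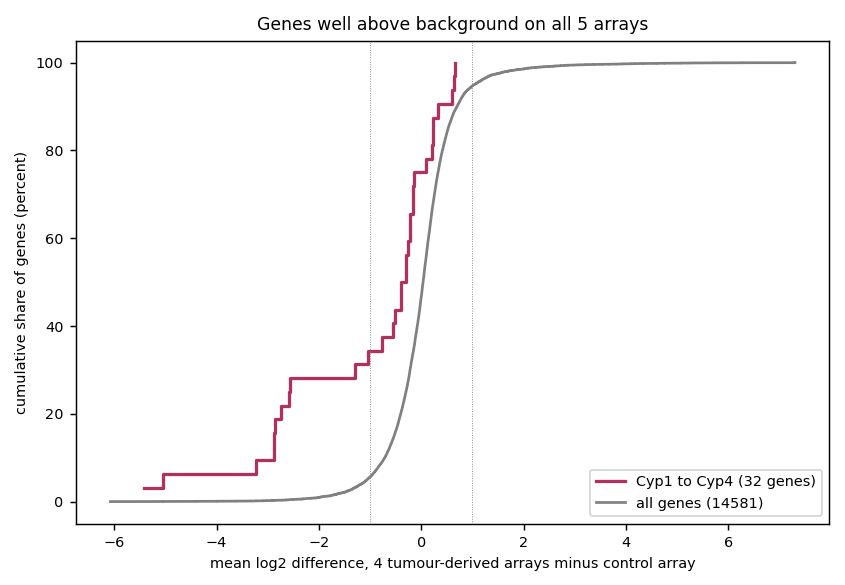
Cumulative share of genes (percent, y axis) by mean log2 difference between the 4 tumour-derived arrays and the control array (x axis), for the 32 Cyp1 to Cyp4 genes and for all 14581 genes well above background on all 5 arrays. 11 of the 32 lie left of the dotted line at −1 and none lies right of the line at 1.

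The 3 largest mean differences among the 32 were in Cyp2c genes. Cyp2c enzymes oxidise arachidonic acid and many drugs. Cyp2c65 lay at 0.11, −4.66, −1.71 and −2.72 in the hairpin 1, hairpin 2, Apc and Pik3ca cultures, against 3.16 in the control, a mean difference of −5.41 ± 1.74 (SE, limma adjusted p = 0.323). Cyp2c66 lay at −1.06, −4.31, −2.59 and −3.44 in the hairpin 1, hairpin 2, Apc and Pik3ca cultures, against 2.20 in the control (−5.05 ± 1.22, limma adjusted p = 0.261). In both genes the control was above every tumour-derived culture, hairpin 1 was nearest to it and hairpin 2 was lowest, and the means were 42.5-fold and 33.1-fold lower. Cyp2c29 lay at −3.69, −5.42, −4.13 and −5.45 in the hairpin 1, hairpin 2, Apc and Pik3ca cultures, against −1.44 in the control (−3.23 ± 0.81, limma adjusted p = 0.266). Cyp2c23, an arachidonic acid epoxygenase of the mouse kidney, lay at 0.29, −1.01, 0.40 and −1.39 in the hairpin 1, hairpin 2, Apc and Pik3ca cultures, against 2.16 in the control (−2.59 ± 0.82, limma adjusted p = 0.315). For Cyp2c23, Apc and hairpin 1 were the nearest to the control and no tumour-derived culture reached it.

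The other 3 Cyp2c genes detected on all 5 arrays were near the control: Cyp2c37 at 0.22, Cyp2c38 at 0.23 and Cyp2c70 at −0.15 in mean log2 difference. They were fainter, at −4.94, −2.61 and −4.22 in the control, where the lowest level well above background was −6.07. A mean fall as large as that of Cyp2c65 would have taken them below detection. Cyp2c55, a PXR- and CAR-responsive gene of the gut and liver in mice, was detected in hairpin 1 and the control only. It lay at −5.59, −5.79, −6.13 and −6.04 in the hairpin 1, hairpin 2, Apc and Pik3ca cultures, against −2.44 in the control (−3.45 ± 0.29, limma adjusted p = 0.058). It was the member nearest to the threshold, and it passed under 2 other settings (adjusted p = 0.0406 with quantile scaling and 0.0249 with dim signals raised to a floor). Because 3 of its 4 tumour-derived values were not well above background, its spread is partly that of background signals.

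Both detected Cyp2b genes were lower. Cyp2b10, the classic phenobarbital-inducible gene of mouse liver and a target of CAR, lay at 0.89, −1.18, −0.14 and −2.10 in the hairpin 1, hairpin 2, Apc and Pik3ca cultures, against 2.25 in the control (−2.89 ± 1.14, limma adjusted p = 0.381). Cyp2b9 lay at −0.50, −2.47, −1.57 and −3.43 in the hairpin 1, hairpin 2, Apc and Pik3ca cultures, against 0.87 in the control (−2.86 ± 1.11, limma adjusted p = 0.375). Both ran in the same order from high to low, hairpin 1, Apc, hairpin 2 and Pik3ca, all below the control. Their differences from the control diverged on any 1 array by at most 0.0937. The remaining 3 Cyp2b members, Cyp2b13, Cyp2b19 and Cyp2b23, were not detected.

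Of 5 Cyp2d genes detected on all 5 arrays, 4 were at least 2-fold lower. The subfamily corresponds to human CYP2D6, which oxidises many basic drugs. Cyp2d26 lay at 1.25, −0.32, 0.43 and −1.08 in the hairpin 1, hairpin 2, Apc and Pik3ca cultures, against 2.95 in the control (−2.88 ± 0.90, limma adjusted p = 0.311). Cyp2d10 lay at −1.44, −2.75, −1.96 and −3.67 in the hairpin 1, hairpin 2, Apc and Pik3ca cultures, against 0.29 in the control (−2.75 ± 0.87, limma adjusted p = 0.316). These 2 genes shared the order seen for Cyp2b9 and Cyp2b10. Cyp2d12 lay at −2.47, −4.24, −3.65 and −4.04 in the hairpin 1, hairpin 2, Apc and Pik3ca cultures, against −1.03 in the control (−2.57 ± 0.72, limma adjusted p = 0.287). Cyp2d11 lay at 0.25, −0.40, −0.27 and −0.20 in the hairpin 1, hairpin 2, Apc and Pik3ca cultures, against 1.15 in the control (−1.30 ± 0.31, limma adjusted p = 0.26). Cyp2d11 was thus the one whose tumour-derived values lay closest together, over 0.64. Cyp2d40 was at 0.60 in mean log2 difference, with the control below all 4.

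The last of the 11, Cyp2j9, a member of a subfamily of fatty acid epoxygenases, averaged −1.04 ± 0.58 (limma adjusted p = 0.506) and was within 2-fold of the control in Apc and Pik3ca. Its mean was −0.76 without hairpin 2 and −0.49 with normexp background correction and quantile scaling. The other 3 Cyp2j genes were near the control, at −0.16 for Cyp2j13, −0.27 for Cyp2j6 and −0.22 for Cyp2j8. Cyp2j6 lay at 0.38, −0.27, 0.02 and 0.18 in the hairpin 1, hairpin 2, Apc and Pik3ca cultures, against 0.35 in the control. Cyp2j8 lay at 0.44, −0.24, 0.27 and 0.26 in the hairpin 1, hairpin 2, Apc and Pik3ca cultures, against 0.40 in the control. In both genes 1 or more tumour-derived cultures overlapped the control's level.

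**Figure D2:**
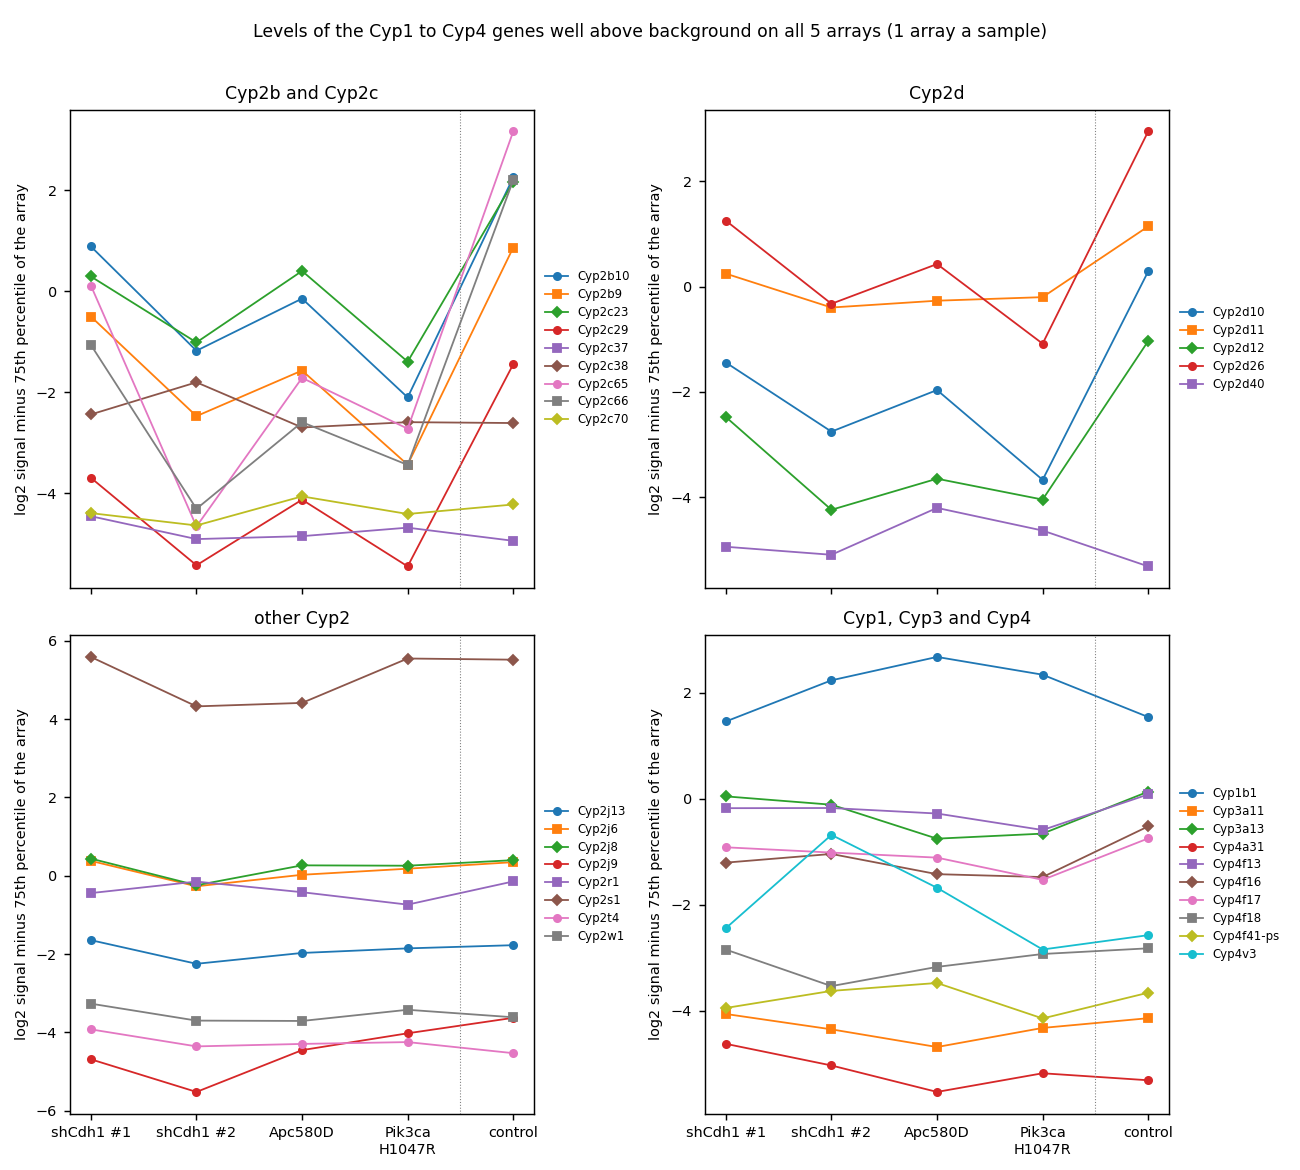
Log2 signal minus the 75th percentile of the array (y axis) for the 32 members well above background on all 5 arrays, in 4 groups of subfamilies, with the 4 tumour-derived cultures left of the dotted line and the control right of it (x axis, 1 array a sample). Lines join the values of a gene: Cyp2c65 reaches 3.16 in the control and 0.11 or less in the tumour-derived cultures, while Cyp2s1 lies between 4.32 and 5.59 on every array.

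The 11 genes were not equally low in every tumour-derived culture. Hairpin 1 was nearest to the control in 9 of 11, and above hairpin 2 in 11 of 11. Pik3ca was lowest in 6 and hairpin 2 in 5. Apc was above Pik3ca in 9 of 11. Their median log2 difference from the control was −1.70 in hairpin 1, −3.27 in hairpin 2, −2.43 in Apc and −4.0 in Pik3ca. By these medians the 2 hairpins of 1 genotype lay farther apart than hairpin 1 and Apc, which differ in genotype. Counted singly over the 32 members detected on all 5 arrays, at least 2-fold lower than the control were 10 in hairpin 1 (6.73% of genes), 12 in hairpin 2 (6.93%), 11 in Apc (5.16%) and 10 in Pik3ca (8.48%). At least 2-fold higher were 0 in hairpin 1 (4.52%), 1 in hairpin 2 (6.75%), 2 in Apc (6.21%) and 0 in Pik3ca (7.9%). These orders are descriptions, since the members were chosen for their mean difference, and each of Apc and Pik3ca is 1 array. The share of all genes with the same orders was not counted, so the orders may not be particular to these members. Cyp2b9 with Cyp2b10, and Cyp2d10 with Cyp2d26, ran almost alike (within 0.27 on every array) and were counted as separate genes.

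Cyp2s1 and Cyp1b1, above the 75th percentile on every array, were within 2-fold of the control on average. Cyp2s1, a P450 of epithelia outside the liver, lay at 5.59, 4.32, 4.41 and 5.55 in the hairpin 1, hairpin 2, Apc and Pik3ca cultures, against 5.52 in the control (−0.55 ± 0.63, limma adjusted p = 0.747). Hairpin 1 and Pik3ca were level with the control, and hairpin 2 and Apc were lower. Cyp1b1, an aryl hydrocarbon receptor target that hydroxylates oestradiol and polycyclic hydrocarbons, lay at 1.46, 2.23, 2.68 and 2.34 in the hairpin 1, hairpin 2, Apc and Pik3ca cultures, against 1.54 in the control (0.63 ± 0.49, limma adjusted p = 0.625). Hairpin 1 lay below the control and the other three above it. Cyp4v3, a fatty acid hydroxylase whose human counterpart is mutated in an inherited retinal disease, lay at −2.44, −0.68, −1.68 and −2.84 in the hairpin 1, hairpin 2, Apc and Pik3ca cultures, against −2.57 in the control (0.66 ± 0.85).

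Families 3 and 4 held few differences among the genes detected on all 5 arrays. Cyp3a13, the Cyp3a gene of mouse tissues outside the liver, lay at 0.05, −0.11, −0.75 and −0.66 in the hairpin 1, hairpin 2, Apc and Pik3ca cultures, against 0.14 in the control. Cyp3a11, the main Cyp3a gene of mouse liver, averaged −0.21. In family 4, whose Cyp4f genes hydroxylate leukotrienes and fatty acids, mean log2 differences lay between −0.77 and 0.66. Cyp4f13 lay at −0.18, −0.17, −0.28 and −0.59 in the hairpin 1, hairpin 2, Apc and Pik3ca cultures, against 0.08 in the control. Cyp4f16 averaged −0.77 (unadjusted p = 0.033, limma adjusted p = 0.342), Cyp4f17 −0.39, Cyp4f18 −0.30, the pseudogene Cyp4f41-ps −0.14 and Cyp4a31 0.22. The family 2 genes Cyp2r1, a vitamin D hydroxylase, Cyp2t4 and Cyp2w1 averaged −0.29, 0.32 and 0.09.

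By subfamily, at least 2-fold lower among genes detected on all 5 arrays were 2 of 2 Cyp2b, 4 of 7 Cyp2c, 4 of 5 Cyp2d, 1 of 4 Cyp2j, 0 of 2 Cyp3a and 0 of 5 Cyp4f genes. The median difference was −0.80 over 22 genes of family 2, −0.36 over 2 of family 3 and −0.30 over 7 of family 4, and Cyp1b1 alone stood for family 1 at 0.63. Genes not well above background on every array are left out of these counts. Over members tested, 2 of 2 Cyp2a and 2 of 4 Cyp3a genes were at least 2-fold lower. The medians were then −1.05 over 32 genes of family 2 and −1.16 over 4 of family 3. They were −0.34 over 16 genes of family 4 and 0.63 over 3 of family 1. Some of these genes were detected in the control alone. All these medians are descriptions, and differences between families were not tested.

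**Figure D3:**
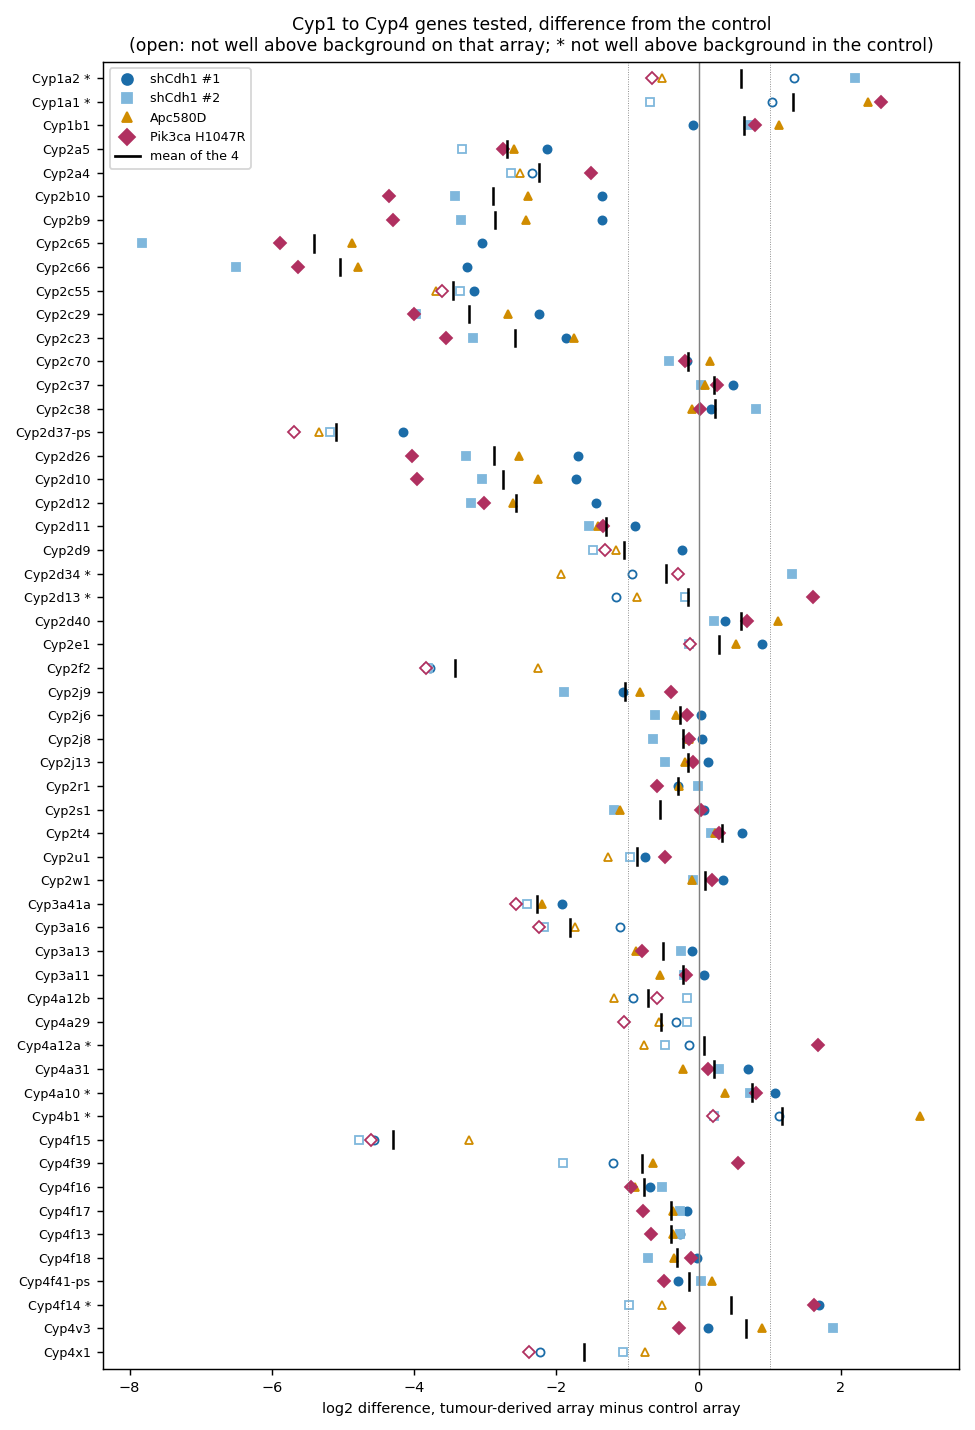
Log2 difference of each tumour-derived array from the control array (x axis) for the 55 members tested (rows, by family and subfamily). Filled symbols were well above background on that array, open ones were not, bars are means of the 4 arrays, and an asterisk marks members not well above background in the control. Of the rows with all symbols filled and a detected control, Cyp2c65 (−5.41) and Cyp2c66 (−5.05) have the lowest means.

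The 23 members detected on 1 to 4 arrays give looser values, since a gene seen only in the control had to differ. 6 were detected in the control and in no tumour-derived culture, 10.9% of the 55 tested (1.01% of all genes tested). 1, the PPARα target Cyp4a10, was detected in all 4 tumour-derived cultures and not in the control (1.33%). For those the difference is a bound. Cyp4f15 was at least 6.08-fold lower (limma adjusted p = 0.167) and Cyp2f2, which activates naphthalene in mouse lung, at least 3.36-fold lower (limma adjusted p = 0.231). The bounds were 1.27-fold for Cyp4x1, 1.20-fold for Cyp4a29 and 1.09-fold each for Cyp3a16 and Cyp4a12b. Cyp4a10 was at least 1.63-fold higher.

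Among the others, Cyp2d37-ps, a pseudogene, lay at −5.39, −6.42, −6.57 and −6.93 in the hairpin 1, hairpin 2, Apc and Pik3ca cultures, against −1.23 in the control, and was detected in hairpin 1 and the control only (−5.10 ± 0.60, limma adjusted p = 0.117). Cyp2a5, which oxidises nicotine and coumarin, was at −4.97, −6.17, −5.43 and −5.59 in the hairpin 1, hairpin 2, Apc and Pik3ca cultures, against −2.84 in the control (−2.70 ± 0.47, limma adjusted p = 0.215). In both genes every tumour-derived value was below the control. Cyp2a4, a steroid hydroxylase, averaged −2.25 ± 0.48 and Cyp3a41a −2.28 ± 0.31. Cyp2d9 and the fatty acid hydroxylase Cyp2u1 averaged −1.05 and −0.87. Cyp4f39, detected in Apc, Pik3ca and the control, averaged −0.80, with Pik3ca above the control. The largest positive differences were of faint genes: Cyp1a1, the standard target of the aryl hydrocarbon receptor, was detected in Apc (−5.18) and Pik3ca (−4.98) only, Cyp4b1 in Apc only (−5.21), and Cyp1a2 in hairpin 2 only (−5.24). The ethanol-oxidising Cyp2e1 was detected in hairpin 1, Apc and the control and averaged 0.29. Cyp4f14, detected in hairpin 1 and Pik3ca only, averaged 0.46, and Cyp4a12a, detected in Pik3ca only, 0.08.

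Further probes mostly gave the same direction. 16 members had more than 1 probe, and for 7 a further probe was well above background on at least 1 array. 6 of the 7 had the direction of the probe used, and the exception was Cyp2j13, whose further probe was detected in hairpin 1 only and averaged 0.29. For 4 members a further probe was well above background on all 5 arrays. The second probes of Cyp2c23 and Cyp2d26 averaged −2.73 and −2.14, those of Cyp2j6 and Cyp4f16 −0.95 and −0.77. The second Cyp2b10 probe, detected on 4 arrays, averaged −2.95, and the second Cyp2c55 probe, detected in hairpin 1 and the control, −5.21. Signals of near-identical paralogs could not be told apart here, because probe sequences were not used. Of 49 pairs of genes within a subfamily, 6 had array differences within 0.5 of each other on every array: Cyp2b10 with Cyp2b9, Cyp4f13 with Cyp4f17, all 3 pairs of Cyp2j6, Cyp2j8 and Cyp2j13, and Cyp2d10 with Cyp2d26. Shared signal within these pairs was not tested.

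Along the chromosomes, lower genes stood next to each other and next to genes that were not lower. In the RefSeq gene order of chromosome 19, Cyp2c55, Cyp2c65, Cyp2c66 and Cyp2c29 follow each other. The Cyp2c genes with a probe from there to Cyp2c70 were not detected or were near the control, and Cyp2c23, farther along, was lower. On chromosome 15, Cyp2d11, Cyp2d10, Cyp2d9 and Cyp2d12 are followed by Cyp2d34, detected in hairpin 2 alone, then by Cyp2d40 at 0.60 and by Cyp2d26. On chromosome 7, Cyp2s1 at −0.55 precedes Cyp2b10, and Cyp2t4 at 0.32 follows Cyp2f2.

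**Figure D4:**
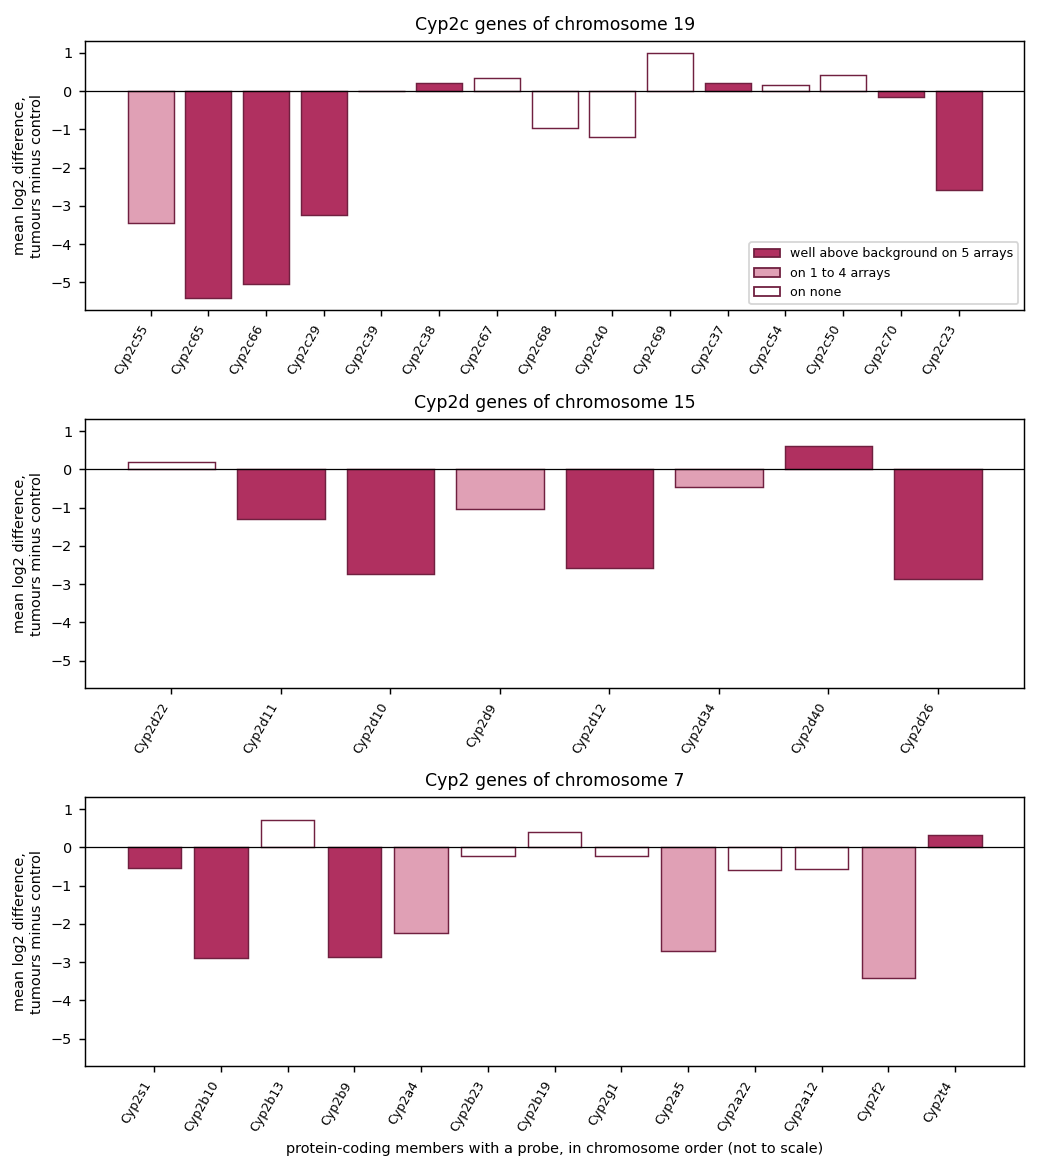
Mean log2 difference between the 4 tumour-derived arrays and the control (y axis) for members with a probe, in the order of genes on chromosomes 19, 15 and 7 (x axis, not to scale). Dark bars were well above background on all 5 arrays, pale bars on 1 to 4 and white bars on none. The first 4 Cyp2c genes lie between −3.23 and −5.41.

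Within slide 1, the hairpin cultures (n = 2) were set against the control. 11 of the 32 genes detected on all 5 arrays were at least 2-fold lower, against 5.99% of genes, and they were the same 11. That count is no independent check, since both comparisons use the same control and hairpin arrays. Differences were −5.44 ± 2.41 for Cyp2c65, −4.88 ± 1.65 for Cyp2c66, −2.40 ± 1.07 for Cyp2b10 and −2.49 ± 0.84 for Cyp2d26, with limma adjusted p = 0.559, 0.521, 0.562 and 0.521. No gene of 17583 passed limma's test, and 9.74% had an unadjusted p under 0.05, as did 12 of 55 members. 11 of these 12 were lower (4.65% of genes) and Cyp1a2 was higher (5.09%).

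Among the tumour-derived cultures alone, hairpins 1 and 2 were set against Apc and Pik3ca. No gene passed limma's test, and an unadjusted p under 0.05 was found for 4 of 55 members, against 4.58% of genes. Of the 32 detected on all 5 arrays, 1 was at least 2-fold higher in the hairpin cultures, Cyp2b9 (1.01 ± 0.99, limma adjusted p = 0.99), against 0.761% of genes, and 0 were at least 2-fold lower (2.89%). Cyp3a13 was at 0.67 ± 0.20 (unadjusted p = 0.0312, limma adjusted p = 0.99). Slide separates the same arrays, so slide and genotype cannot be told apart in this comparison.

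Sensors and regulators of P450 genes were read from a list of 32, of which 30 were tested. The list was chosen with earlier results of these data known, so its count of passing genes is a description. 2 passed limma's test, both higher (0.0227% of genes passed higher). Onecut1 lay at 0.95, 0.82, 0.91 and 1.05 in the hairpin 1, hairpin 2, Apc and Pik3ca cultures, against −5.10 in the control (6.03 ± 0.21, limma adjusted p = 0.00574). Onecut2 lay at 3.98, 3.97, 4.01 and 4.22 in the hairpin 1, hairpin 2, Apc and Pik3ca cultures, against −1.77 in the control (5.81 ± 0.22, limma adjusted p = 0.00574). Both encode homeobox factors known from liver development, and the 4 tumour-derived values of each lay close together. No gene passed with slide as a block or without hairpin 1, hairpin 2 or Pik3ca, so these 2 calls were lost there.

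The receptors differed in direction. Nr1i2, the receptor PXR, lay at −4.02, −4.12, −3.14 and −5.48 in the hairpin 1, hairpin 2, Apc and Pik3ca cultures, against −0.05 in the control (−4.14 ± 0.86, limma adjusted p = 0.232). All 4 tumour-derived cultures were far below the control. Nr1i3, the receptor CAR, averaged 0.31, while the shared partner Rxra averaged −1.73 ± 0.30, the bile acid receptor Nr1h4 −2.26 ± 0.94 and the oxysterol receptor Nr1h3 −1.95 ± 0.37, none of them past the threshold. The aryl hydrocarbon receptor Ahr averaged 1.32 ± 0.38 and its target genes Ahrr and Tiparp 1.71 ± 0.45 and 1.58 ± 0.64. The liver-type factor Hnf4a averaged −0.55.

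**Figure D5:**
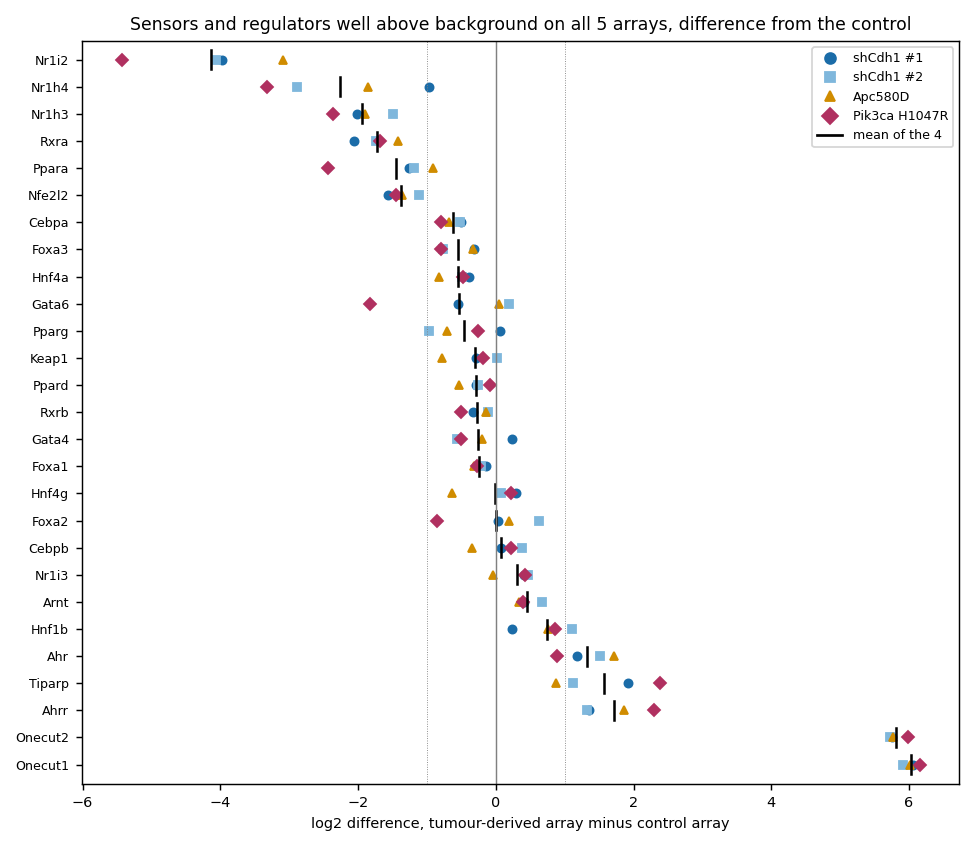
Log2 difference of each tumour-derived array from the control array (x axis) for 27 of the 28 sensors and regulators well above background on all 5 arrays (rows, sorted by the mean, drawn as a bar). Nr1i2 lies lowest at −4.14, and Onecut2 and Onecut1 lie highest at 5.81 and 6.03.

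Of redox partners and haem synthesis genes, 0 of 18 passed and 2 were at least 2-fold lower (5.67% of genes). The 2 were Alad and Uros, enzymes of haem synthesis. The median of the 18 was −0.32. Por, the reductase that feeds all these enzymes, lay at 6.0, 5.91, 5.69 and 6.19 in the hairpin 1, hairpin 2, Apc and Pik3ca cultures, against 5.42 in the control. Of P450 genes above family 4, 0 of 10 tested passed. Of the 7 detected on all 5 arrays, 0 were at least 2-fold lower and 1 was at least 2-fold higher (5.67% and 5.26% of genes). The retinoic acid hydroxylase Cyp26b1 averaged 1.5 ± 1.14.

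Many conjugation and hydrolysis genes were lower. Of 34 conjugation and hydrolysis genes detected on all 5 arrays, 20 were at least 2-fold lower (5.67% of genes) and the median was −1.38. 2 of 40 tested fell in limma's test (0.0967% of all genes tested fell), the carboxylesterases Ces2e (at least 90.1-fold, adjusted p = 0.004) and Ces2f (at least 5.63-fold, adjusted p = 0.0148), both detected in the control alone. They therefore entered the test through the array where they were high, and their error is the spread of 4 background signals, so these calls are given as a description. Ces2c averaged −3.00 ± 0.63, Ces2b −3.00 ± 0.69, the sulfotransferase Sult1b1 −2.78 ± 0.89 and the glutathione transferase Gsta2 −2.54 ± 0.55, without passing. Among other oxidoreductases of drugs and retinoids, 11 of 28 were at least 2-fold lower and 3 of 28 at least 2-fold higher (5.67% and 5.26% of genes). The 3 were the retinaldehyde dehydrogenases Aldh1a2 (2.74 ± 1.57) and Aldh1a3 (1.74 ± 0.59) and xanthine dehydrogenase, Xdh (1.28 ± 0.49), and none passed. 1 of 33 tested fell, the aldehyde oxidase Aox3 (at least 1.99-fold, limma adjusted p = 0.0273), which was detected in the control alone and entered the test in the same way as the Ces2 pair. The aldehyde dehydrogenase Aldh3a1 averaged −2.57 ± 0.29, the quinone reductase Nqo1 −2.10 ± 0.63 and the gastric alcohol dehydrogenase Adh7 −1.94 ± 0.29.

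Of 20 eicosanoid enzymes tested, 1 fell, the lipoxygenase Alox5 (at least 3.16-fold, limma adjusted p = 0.016), again detected in the control alone. It entered the test through the array where it was high, so this call too is a description. The cyclooxygenase Ptgs1 lay at 2.17, 3.05, 3.04 and 2.17 in the hairpin 1, hairpin 2, Apc and Pik3ca cultures, against −1.99 in the control (4.59 ± 0.48, limma adjusted p = 0.0941). 0 of 13 export transporters passed, with Abcc4 at −1.52 ± 0.23.

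Markers of other cell types were read beside the P450 genes. Of 12 enterocyte markers, 7 were well above background on each array, and the summed linear level of the 12 was 28.7, 18.7, 33.6 and 28.9 in the hairpin 1, hairpin 2, Apc and Pik3ca cultures, against 67.7 in the control, in units of an array's 75th percentile. Aminopeptidase N, Anpep, made up 72.3% of the control's sum. Without it the other 11 markers summed to 15.8, 12.1, 11.5 and 23.8 in the hairpin 1, hairpin 2, Apc and Pik3ca cultures, against 18.8 in the control, so the Pik3ca culture was then above the control. Vil1, the brightest of these 11, averaged −0.43 and lay at 0.03 from the control in Pik3ca. The median difference of the 6 enterocyte markers detected on all 5 arrays was −0.10. Of these 6, 2 were at least 2-fold lower, Anpep and Fabp2 (−2.02), and 0 were at least 2-fold higher (5.67% and 5.26% of genes). Fabp1, detected in the control alone, was at least 5.30-fold lower. Of all 8 enterocyte markers tested, 3 were at least 2-fold lower and 1 was at least 2-fold higher (6.98% and 9.88% of genes tested). Of 18 gastric epithelium markers the summed level was 943, 721, 807 and 843 in the hairpin 1, hairpin 2, Apc and Pik3ca cultures, against 1141 in the control. 7 of the 17 detected on all 5 arrays were at least 2-fold lower and 0 were at least 2-fold higher (5.67% and 5.26% of genes). The median difference of the 17 was −0.94. Cblif, which encodes gastric intrinsic factor, averaged −4.41 ± 1.15, Psca −3.39 ± 0.95, the pepsinogen gene Pgc −3.33 ± 1.38 and Gkn2 −1.52 ± 1.05, and none of them passed. For 11 hepatocyte markers with a probe the summed level lay at 3.06, 3.04, 2.64 and 2.82 in the hairpin 1, hairpin 2, Apc and Pik3ca cultures, against 2.66 in the control. The sum of 8 squamous forestomach markers was 5.86, 5.50, 5.50 and 7.68 in the hairpin 1, hairpin 2, Apc and Pik3ca cultures, against 3.68 in the control. For 8 leukocyte markers it was 16.0, 21.0, 17.2 and 20.0 in the hairpin 1, hairpin 2, Apc and Pik3ca cultures, against 11.7 in the control, and the defining marker Ptprc was detected in hairpin 1, hairpin 2 and Apc only. Both sums were higher in every tumour-derived culture than in the control, but single markers were not all higher. Of 4 leukocyte markers detected on all 5 arrays, Cd68 averaged 0.98, Itgam 0.28, Cd3e 0.03 and Csf1r −0.05, with a median of 0.15. Of 7 squamous markers detected on all 5 arrays, 3 were at least 2-fold higher (5.26% of genes) and 1 was at least 2-fold lower (5.67%). The lower one was Krt5, at −1.59, which lay below the control in every tumour-derived culture. The sum of 6 adipocyte markers lay between 1.04 and 2.56 in the tumour-derived cultures, against 2.99 in the control. The sum of 8 fibroblast markers was at most 0.268 and that of 6 endothelial markers at most 0.237 on any array. 1 endothelial marker, Emcn, fell (at least 10.9-fold, limma adjusted p = 0.00788) and was detected in the control alone. It entered the test through the array where it was high, so this call is a description. Emcn made up 72.8% of the control's endothelial sum. Without it, the other 5 markers summed to 0.0646 in the control. Their sum was 0.157, 0.113, 0.0903 and 0.108 in the hairpin 1, hairpin 2, Apc and Pik3ca cultures. Of 5 endothelial markers tested, 1 was at least 2-fold lower and 2 were at least 2-fold higher. The part of these cell types in the P450 differences was not tested.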

How the data were processed

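Per the labels' protocols, RNA (0.2 μg) was labelled with Cy3. Per the submitters' processing notes, spots were read by Agilent Feature Extraction 11.0.1.1. Intensity as deposited is, per the file headers, already background-subtracted and not normalized between arrays. The authors' deposited table holds log2 values; against the scanner values its tumour-minus-control differences had a slope of 1 over 53335 probes, so its direction and scaling were found, while the baseline taken from each probe is unknown. Its column medians were 0.0738 and 0.0312 for hairpins 1 and 2, −0.0796 for Apc, 0.0225 for Pik3ca and −0.0572 for the control.

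Each array's log2 signal was reduced by its 75th percentile over 59305 non-control spots. Outlier spots (78 to 114 an array) were left out and 0 spots were saturated. The well-above-background share of spots ran from 61.8% to 65.3%, and the percentile used for scaling was 24.0 to 27.9 times the median background. Of 56605 probes, 32 were dropped, 34549 had 1 RefSeq symbol, 0 several and 22024 none. The probe with the highest mean stood for a gene. The 17583 genes with a probe well above background on any array entered the test, limma 3.58.1 under R 4.3.3 (two-sided, Benjamini-Hochberg over all genes, checked on simulated data), with 3, 1 and 2 residual degrees of freedom for the 3 comparisons: tumour-derived against control, hairpins against control, and hairpins against Apc and Pik3ca. A bound sets the brighter side against the higher of the dim signal and the lowest signal well above background.

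Named were all members detected on all 5 arrays, the 12 largest differences each way among the others, and up to 4 genes per pathway list plus any that passed. Some genes that this rule names among the pathway and marker lists are not printed, and 1 sensor or regulator is not reported here. Members and lists were chosen with earlier results of these data known. Alternatives were normexp with quantile (offset 50, on median spot signals), median and quantile scaling, other filters, a floor, all probes of a gene, the authors' table, slide as a block and each tumour-derived array left out.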

Additional observations from a re-analysis of the deposited data

How the results depend on the processing

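All 23 members at least 2-fold from the control kept their direction in each setting that gave them a value, and 11 of 11 did so among genes detected on all 5 arrays. Of the 23, 8 came within 2-fold with normexp, 5 with a floor, 3 with slide as a block, 2 with quantile scaling, 1 with median scaling, 1 with the mean over all probes and 0 to 2 with 1 array left out. Of the 11, Cyp2j9 did so with normexp (−0.49) and without hairpin 2 (−0.76), leaving 10 in each. Against the main 21 genes passing for tumour-derived against control, 39 passed with normexp, 7 among genes detected on all 5 arrays, 49 with a floor, 0 with slide as a block and 0 to 19 with 1 array left out. Members passing, 0 in the main setting, were 1 with normexp (Cyp2d37-ps, −2.61, limma adjusted p = 0.0211), 1 with quantile scaling (Cyp2c55), 3 with a floor (Cyp2c55, Cyp2d37-ps and Cyp4f15) and 0 to 1 with 1 array left out (Cyp4f15 without Apc, −4.65, limma adjusted p = 0.0411). Members with an unadjusted p under 0.05 were 17, and 11 among genes detected on all 5 arrays. Of the members passing in other settings, Cyp4f15 was detected in the control alone and entered the test through the array where it was high. With a floor, each of its tumour-derived values is the floor of its array. Cyp2c55 and Cyp2d37-ps were detected in hairpin 1 and the control only. Their error is wholly or partly the spread of background signals or floors, so these passes are descriptions. The median of the members tested was −0.50, and −0.24 with normexp, −0.30 without a filter and −0.30 with a floor. For hairpins against control the median was −0.37, and −0.62 with quantile scaling and −0.64 to −0.30 with 1 hairpin left out.

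For hairpins against Apc and Pik3ca, members with an unadjusted p under 0.05 were 4, and 1 with normexp, 7 without a filter, 1 among genes detected on all 5 arrays, 2 with a floor and 4 to 7 with 1 array left out. Members at least 2-fold lower were 0, and 0 to 3 with 1 array left out (3 without hairpin 1, 1 without hairpin 2, 1 without Apc). The median was 0.16, and −0.16 to 0.35 with 1 array left out. The difference of the faint gene Cyp2d13, −1.05, ran from −2.28 to 0.19 with 1 array left out, turning positive without Pik3ca. The cause of these changes was not tested. For tumour-derived against control, median scaling moved the median of all genes to −0.11, against 0.06 in the main setting. No paired analysis was possible because 1 group alone has 2 arrays, and the groups compared share fewer than 2 replicate numbers. The number of arrays limits the precision.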
